A study of Mus musculus with 80 samples.

Results

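Muscle stem cells of 2 origins, the extraocular muscles (EOM) that move the eye and the tibialis anterior (TA) of the hindlimb, were compared after both had been grafted into the same kind of host muscle, the TA. The comparison rests on 14 of the 20 grafts of the series, 7 of EOM and 7 of TA origin, and it belongs to 40 RNA libraries among 80 samples. The 14 are the grafts that the study's quality control accepted. EOM grafts of mice 1, 3 and 5 and TA grafts of mice 1, 4 and 5 of Experiment 1 were left out, so 6 EOM and 6 TA grafts of Experiment 2 and 1 of each of Experiment 1 remained.

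Donor cells came from Tg:Pax7-nGFP mice, in which a transgene driven by the Pax7 gene marks satellite cells with nuclear GFP, aged 7.6 weeks in Experiment 1 and 7 weeks in Experiment 2. The hosts were immunodeficient Rag2-/-;γC-/- males. Both TA muscles of a host had been injured with cardiotoxin before they received cells, EOM cells on one side and TA cells of the same donor on the other. GFP-positive cells were sorted again, at day 21 by the labels. The study's text gives a later day in its results and a range of weeks in its methods. RNA and DNA of the same small pool were separated and sequenced. By the labels, pools held from 9 to just over 100 cells per EOM graft (median 35) and 16 to 67 per TA graft (median 26). For some of these grafts the study's quality table gives another cell number, and the labels' numbers are used here. Sorting by GFP leaves out donor cells without the reporter, host cells carried no transgene, and each graft library is 1 pool from 1 donor. In pools of this kind, fewer cells of a type and less RNA per cell cannot be told apart.

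Satellite cells are the stem cells of skeletal muscle, and Pax7 is their defining transcription factor. Limb satellite cells descend from somites through progenitors that use Pax3, Lbx1 and Hox genes, whereas EOM satellite cells descend from head mesoderm and use Alx4 and other head factors in place of Pax3. Grafting both into an injured limb muscle puts cells of different history in 1 environment, and the question was which differences of origin the grafted cells still showed.

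Both groups held satellite cell RNA. Reads of Pax7 were present in 14 of 14 grafts, at 3.37 to 9.02 (median 6.67) log2 RPM in EOM grafts and 3.17 to 9.11 (median 6.73) in TA grafts, where RPM are the reads of a gene scaled to the depth of its library. Myf5, a factor of committed myogenic cells, ranged from 3.83 to 9.36 (median 6.75) in EOM grafts and from 2.52 to 9.58 (median 6.97) in TA grafts. Calcr, Itga7 and Vcam1, surface proteins of quiescent satellite cells, also had reads in 14 of 14, whereas Chrdl2 had reads in 11. Between 1357233 and 2899135 reads fell on genes, 9758 to 13797 genes were detected, and the mitochondrial share of all reads spanned 3.85 to 59.6% in EOM and 5.45 to 46.8% in TA grafts. None of 5 library measures passed a test by origin (two-sided exact permutation tests over 7 and 7 grafts, smallest adjusted p = 0.898 for 5 tests). The TA graft of mouse 3 of Experiment 2, from 16 cells, stood apart with 81.1% of its gene reads on mitochondrial genes.

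No gene separated the grafts by origin at the threshold used. Of 12377 genes tested, 0 were called in either direction (limma on log2 RPM, Benjamini-Hochberg adjusted p under 0.05 and a log2 difference beyond 1, 0% of genes), and the smallest adjusted p was 1.00. At an unadjusted p under 0.05, 165 genes (1.33%) were higher in EOM grafts and 287 (2.32%) in TA grafts, together 452 genes or 3.65%. On the recovered reads, edgeR called 0 genes and DESeq2 called 3, Alx4 higher in EOM and Asb4 and Slc6a17 higher in TA grafts. The direction of the genes at that level depended on scaling, and each scaling gave its own set of genes. On the EOM side lay 36.5% of the set as deposited, 50.5% after scaling without mitochondrial genes and 58.9% after centring each library. The balance also depended on single libraries, with 109 EOM-higher genes without the EOM graft of mouse 4 of Experiment 1 and 267 without that of mouse 4 of Experiment 2. The TA-higher count was 155 without the EOM graft of mouse 2 of Experiment 2, 458 without that of mouse 1 of Experiment 2, 158 without the TA graft of mouse 3 of Experiment 1 and 584 without that of mouse 3 of Experiment 2. The median difference over all genes was -0.09 (EOM minus TA, log2), or -0.03 and 0.02 under the other scalings.

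The spread between grafts set what could be seen. The median standard deviation of a gene was 1.59 on the log2 scale among EOM grafts and 1.55 among TA grafts, against 0.49 and 0.73 among the 8 EOM and 8 TA pre-graft libraries of 500 cells each. The median standard error of the EOM minus TA difference was 0.92 in grafts and 0.33 before grafting for the same genes. A median gene had to differ by 1.86 (3.64-fold) to reach an unadjusted p of 0.05 and by 4.98 (31.6-fold) to pass alone after correction. For the 3094 genes with the highest levels these limits were 1.16 and 3.10. An unadjusted difference that would be seen in 80% of such experiments was 2.64 for the median gene. Of the 499 genes tested that had differed by origin before grafting, 290 had a pre-graft difference above their own unadjusted limit, 130 one that would be seen in 80% of experiments, and 14 one above the limit for passing alone.

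**Figure D1:**
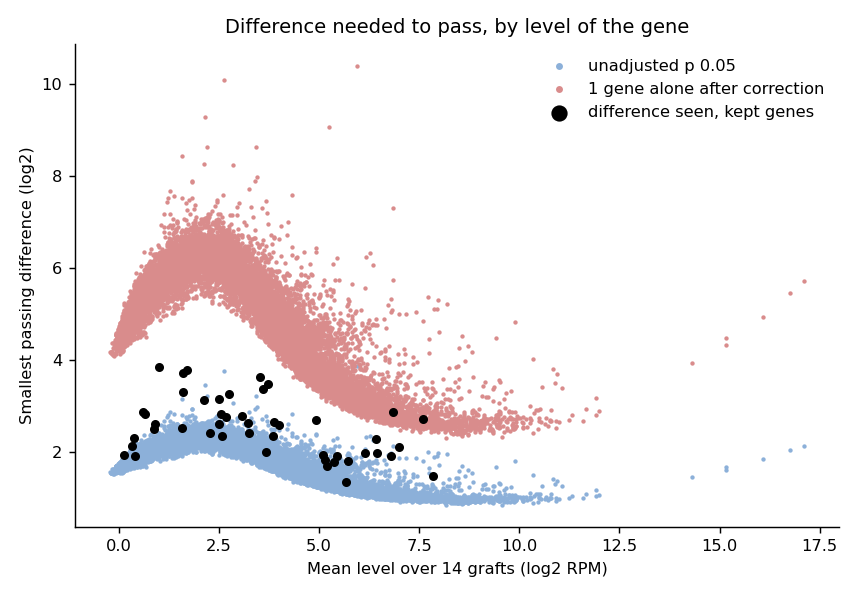
Each point is a gene tested in the 14 grafts, placed by its mean level (x axis, log2 RPM) and the smallest EOM minus TA difference that could pass (y axis, log2), at unadjusted p 0.05 in blue and alone after correction in red. Black points are the differences seen for the 47 origin genes called kept: each exceeds its own unadjusted limit (median over genes 1.86) and none its limit after correction (median 4.98).

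The genes that marked origin before grafting gave the gene-by-gene view. Before grafting, 437 genes were called higher in EOM (3.31% of 13217 tested) and 166 higher in TA (1.26%), from libraries that the graft comparison does not use, although some came from the same donors. These numbers moved with scaling too, to 282 and 224 without mitochondrial genes and 275 and 234 after centring, and the median over all genes before grafting was 0.30 as deposited. A gene was called kept where the 95% interval of its graft difference excluded 0 on its pre-graft side, reduced where the interval held 0 and excluded the pre-graft difference, undetermined where it held both, and opposite where it excluded 0 on the other side. Intervals are per gene and not adjusted for the number of genes.

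Of the 437 EOM genes, 81 were too low in grafts to be tested. Among the 356 tested, 25 (7.02%) were kept, 143 reduced, 184 undetermined and 4 opposite, and 232 (65.2%) lay on the EOM side, where 44.2% of all genes lay. Their median difference was 0.31 in grafts against 1.89 before grafting. That median rested on single libraries: it was 0.11 without the TA graft of mouse 3 and 0.50 without that of mouse 2 of Experiment 2, 0.16 without the EOM graft of mouse 4 of Experiment 1, and 0.49 and 0.56 without those of mice 3 and 4 of Experiment 2. Of the 166 TA genes, 143 were tested and 23 were not. Here 22 (15.4%) were kept, 57 reduced, 63 undetermined and 1 opposite, and 115 (80.4%) lay on the TA side, where 55.8% of all genes lay, with a median of -0.75 against -2.30 before. Both pre-graft medians, 1.89 and -2.30, came from the libraries that chose these genes, a choice that enlarges them. The kept shares can be read beside the 1.33% and 2.32% of all genes that reached the same unadjusted level in those directions. Within Experiment 2 alone, 15 of 339 tested EOM genes and 18 of 138 tested TA genes were kept, and Experiment 1 held 1 graft of each origin and gave no value. The number of kept TA genes was 11 without the EOM graft of mouse 2 of Experiment 2 and 14 without the TA graft of mouse 6 of Experiment 2. With the donor as a fixed block over complete pairs, 19 EOM and 22 TA genes were kept, among them 15 of the 25 and 13 of the 22.

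A gene that passes a filter on level only through the grafts in which it is high has to differ, so the same was counted without the filter. With any read in 1 graft sufficing, 434 EOM and 165 TA genes could be placed, of which 30 and 23 were kept (background 1.17% and 1.39% of 20325 genes), 204 and 70 reduced, 198 and 71 undetermined and 2 and 1 opposite. In the filtered set, 55 genes passed through EOM grafts alone and 36 through TA grafts alone, whereas 369 passed in both groups. Of the kept genes, 14 of the 25 EOM genes were above log2 RPM 1 in at least 4 TA grafts, and 15 of the 22 TA genes in at least 4 EOM grafts.

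**Figure D2:**
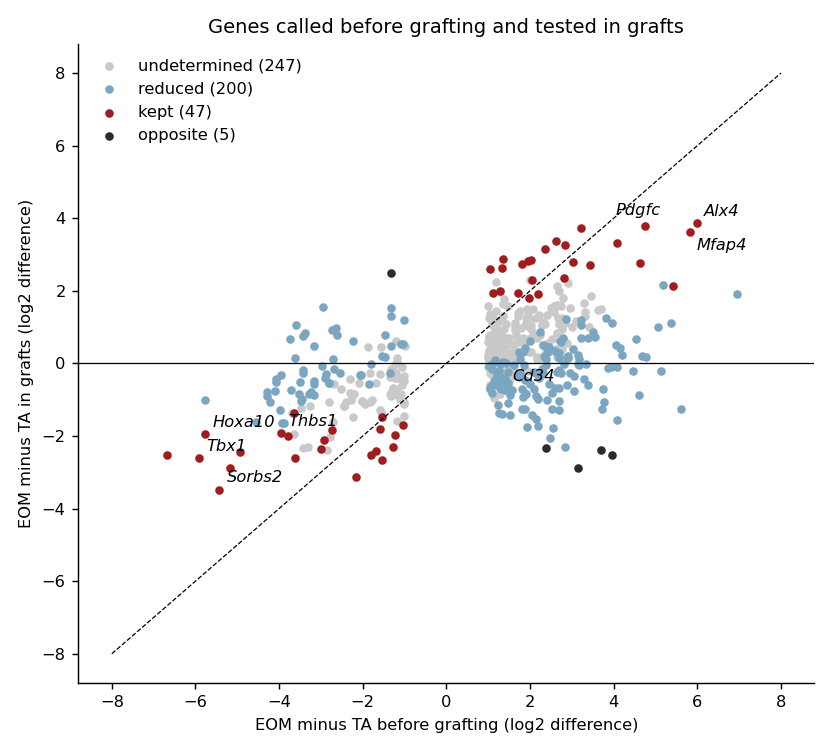
Each point is 1 of 499 genes called before grafting and tested in grafts, with the EOM minus TA difference before grafting on the x axis and in grafts on the y axis (both log2). The dashed line marks an equal difference: most points lie nearer to 0 on the y axis than on the x axis, with 47 kept genes in red, 200 reduced in blue, 247 undetermined in grey and 5 opposite in black.

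Alx4, a homeobox factor of craniofacial mesenchyme, had the smallest p of all genes on the EOM side. The gene (GRCm38 chr2:93642384-93681339, plus strand) had reads in 6 of 7 EOM grafts, at -0.71 to 5.24 log2 RPM with a median of 2.82 and up to 59 reads, and 0 reads in each of 7 TA grafts. Groups overlapped only through the 1 EOM graft with no read, and EOM was higher in 5 of the 6 pairs of grafts from the same donor and host. The mean RPM of EOM grafts was at least 8.16-fold that of 3 reads in each TA library. The log2 difference, which depends on the value given to 0 reads, was 3.86 (SE 0.97, 95% interval 1.90 to 5.83; limma, unadjusted p = 0.000312), against 5.99 before grafting. Alx4 passed the filter on level only through EOM grafts. No other head factor of the list was kept.

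A pair of thyroid hormone genes was kept on the EOM side. Dio2, the deiodinase that converts thyroxine to the active hormone inside the cell, ranged from -0.95 to 8.96 log2 RPM (median 7.98) in EOM grafts and from -1.22 to 6.19 (median 5.03) in TA grafts. The groups overlapped only through the EOM grafts of lowest level, and the difference was 2.71 (6.56-fold, SE 1.19, 95% interval 0.31 to 5.12; limma, unadjusted p = 0.0281) beside 3.43 before grafting. Tshr, the thyrotropin receptor, ranged from -0.95 to 7.74 (median 4.97) in EOM and from -1.22 to 5.43 (median 1.35) in TA grafts, a difference of 2.79 (6.91-fold, SE 1.17, 95% interval 0.42 to 5.16; limma, unadjusted p = 0.0226) beside 3.02. For both, the EOM graft of mouse 4 of Experiment 2, from 9 cells, had no read. The other 9 thyroid hormone genes tested of a list of 14 did not reach an unadjusted p of 0.05, and the list's median was 0.13 beside -0.09 over all genes.

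The kept EOM genes also included Mfap4, Tgfbi, Col6a1, Pdgfc and Vcan. Mfap4, a microfibril protein of the extracellular matrix, was at 2.36 to 9.17 log2 RPM (median 4.35) in EOM grafts and -1.10 to 5.45 (median 2.74) in TA grafts, with reads in 7 and 4 of 7. Its difference was 3.63 (12.4-fold, SE 1.10; limma, unadjusted p = 0.00214), beside 5.82 before. Tgfbi, an adhesion protein induced by TGF-beta, was at 1.79 to 8.33 (median 5.11) against -1.10 to 6.42 (median 2.60), a difference of 3.38 (SE 1.09). Col6a1, a chain of collagen VI, had reads in all 14 grafts, at 4.69 to 7.91 (median 6.03) against 2.52 to 6.33 (median 4.61), and differed by 1.93 (3.80-fold, SE 0.67). Pdgfc, a ligand of the PDGF receptor alpha, had reads in 6 EOM grafts and in 1 TA graft, that of mouse 2 of Experiment 2 with 32 reads, a difference of 3.78 (SE 1.14). This gene passed the filter on level only through EOM grafts. Versican (Vcan) was kept as well, at 2.76, although the extracellular matrix list as a whole had 2 genes higher in EOM and 1, Col6a3, higher in TA at unadjusted p among 26, with a median of -0.13.

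The remaining EOM genes with the smallest p do not share a role. Pkp2, a desmosomal plaque protein, differed by 3.73 (SE 1.12) and Pcdh9, a protocadherin, by 3.32 (SE 1.15). The neuropeptide galanin (Gal) was at 4.45 to 12.79 log2 RPM (median 9.42) in EOM and 2.84 to 8.38 (median 7.23) in TA grafts, so the upper EOM grafts lay above every TA graft while the lower ones did not. It differed by 2.74 (6.66-fold, SE 0.89). Tceal3 and Gm885 differed by 2.84 (SE 0.94) and 3.15 (SE 1.07). Pkp2, Pcdh9, Tceal3 and Gm885 passed the filter on level only through EOM grafts. Mfap4 overlaps Mapk7 and Gm885 overlaps Polg2 on the opposite strand, and since strand-specific counting is not stated, their reads could include those of the neighbour.

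The kept TA genes included the transcription factors Tbx1, Sim1, Hoxa10 and Hoxa7. Each of them passed the filter on level only through TA grafts, and such a gene has to differ to some degree. Tbx1, a T-box factor, had reads in 1 of 7 EOM grafts, that of mouse 4 of Experiment 2 with 7 reads, and in 5 of 7 TA grafts, at -0.81 to 4.14 log2 RPM with a median of 3.02. It differed by -2.62 (SE 0.98, 95% interval -4.60 to -0.63; limma, unadjusted p = 0.0111), beside -5.92 before grafting. Sim1, a bHLH-PAS factor of ventral limb muscle, had 0 reads in 7 of 7 EOM grafts and reads in 5 of 7 TA grafts (up to 34), a mean RPM at least 3.78-fold that of 3 reads per EOM library. Hoxa10, a posterior Hox gene used in the limb, likewise had 0 reads in 7 EOM grafts and reads in 4 of 7 TA grafts, with a median of 1.26 log2 RPM and at most 20 reads, at least 2.18-fold. Hoxa7 had reads in 3 EOM and 7 TA grafts, at a median of -0.38 against 3.69, and TA was higher in 6 of 6 pairs, with a difference of -2.43 (SE 1.11; limma, unadjusted p = 0.0348). Hoxa7 overlaps the antisense gene 2700086A05Rik.

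The start regions of 3 kept genes are shown because they stand for the classes above, a thyroid hormone enzyme kept on the EOM side and a T-box and a Hox factor kept on the TA side. Each runs from 250 bases before to 50 after a RefSeq transcript start on GRCm38.p6, 5′ to 3′ on the gene's own strand, which was minus for all 3, at chr12:90738989-90739288 for Dio2, chr16:18588850-18589149 for Tbx1 and chr6:52240805-52241104 for Hoxa10. Capitals mark TATAAA in Dio2 and GGGCGG, on either strand, in the others, and for Tbx1 and Hoxa10 the window printed is the first of 2 that RefSeq gives.
Dio2: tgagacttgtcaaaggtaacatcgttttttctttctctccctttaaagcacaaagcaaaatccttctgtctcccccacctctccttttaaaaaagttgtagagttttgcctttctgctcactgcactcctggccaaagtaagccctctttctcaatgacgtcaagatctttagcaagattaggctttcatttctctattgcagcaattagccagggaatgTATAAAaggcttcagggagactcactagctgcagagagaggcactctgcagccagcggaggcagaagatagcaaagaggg
Tbx1: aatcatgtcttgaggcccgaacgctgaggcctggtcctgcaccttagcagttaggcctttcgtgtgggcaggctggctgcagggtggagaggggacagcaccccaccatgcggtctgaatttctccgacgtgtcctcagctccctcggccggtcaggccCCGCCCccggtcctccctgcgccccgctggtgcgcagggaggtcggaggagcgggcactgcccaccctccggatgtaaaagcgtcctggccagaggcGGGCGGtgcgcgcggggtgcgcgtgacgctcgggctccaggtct
Hoxa10: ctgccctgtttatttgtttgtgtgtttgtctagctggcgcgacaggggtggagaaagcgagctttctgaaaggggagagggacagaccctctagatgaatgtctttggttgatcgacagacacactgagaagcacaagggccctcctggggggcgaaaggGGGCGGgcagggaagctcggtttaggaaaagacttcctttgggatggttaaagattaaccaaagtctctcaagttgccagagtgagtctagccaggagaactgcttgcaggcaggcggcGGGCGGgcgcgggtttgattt
Dio2 held 1 TATAAA and the other two windows 2 GGGCGG each. These letters describe the windows only, and binding at them was not analysed here. Across 32851 windows of all genes, searched on both strands, 13.62% held TATAAA, 35.66% GGGCGG, 16.3% the E-box CAGCTG and 5.291% the homeobox core TAATTA. Among 25 windows of the 17 kept EOM genes with an entry, 8% held TATAAA, 40% GGGCGG, 20% CAGCTG and 0% TAATTA. Among 19 windows of 14 kept TA genes the shares were 15.79%, 31.58%, 10.53% and 0%.

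The other kept TA genes with the smallest p had different roles. Sorbs2, an adaptor of Z-discs and focal adhesions, was at 3.30 to 7.42 log2 RPM (median 5.30) in TA grafts and -1.24 to 4.56 (median 2.61) in EOM grafts. It was higher on the TA side in 6 of 6 pairs and had the smallest p of the kept TA genes, with a difference of -3.48 (SE 0.98, 95% interval -5.47 to -1.48; limma, unadjusted p = 0.00115). Thbs1, the matricellular protein thrombospondin, was at 6.21 to 9.05 (median 7.63) in TA and 3.69 to 7.70 (median 5.22) in EOM grafts, and was again higher on the TA side in 6 of 6 pairs, by 3.79-fold (SE 0.62 on the log2 scale). Col19a1, a minor collagen, differed by -3.14 (SE 1.15) and Adamts9, a secreted protease, by -1.49 (SE 0.62), although Adamts9 overlaps another kept gene, A730049H05Rik, on the opposite strand, and the 2 are not separate evidence. Atp10d, a lipid flippase, was lower in EOM in 6 of 6 pairs with a difference of -2.67 (SE 0.94). Slc7a2, an arginine transporter, differed by -2.42, the inflammatory caspase Casp4 by -2.30 and the kinase Map3k6 by -1.71. Col19a1 passed the filter on level only through TA grafts.

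**Figure D3:**
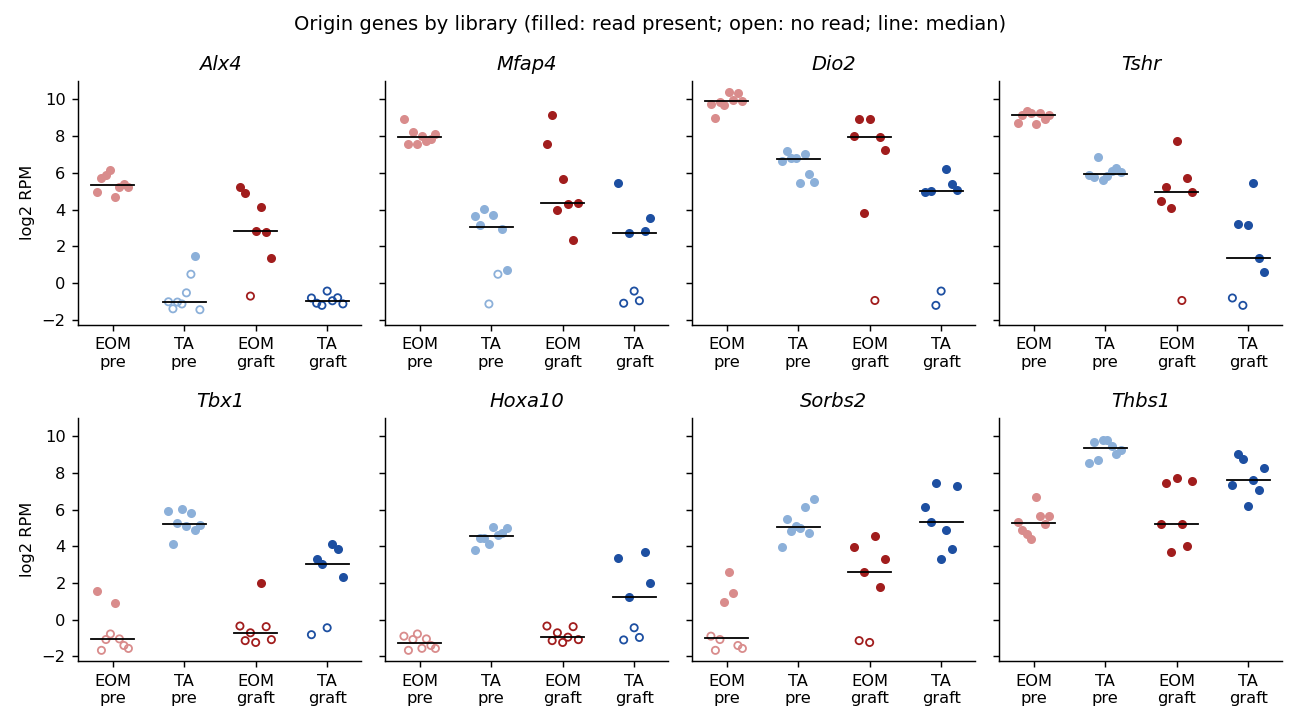
Log2 RPM (y axis) of 8 kept genes in each pre-graft and graft library, by origin (x axis), with filled points for libraries with a read, open points for those without and a line at the median. In grafts the EOM median lies above the TA median for Alx4, Mfap4, Dio2 and Tshr and below it for Tbx1, Hoxa10, Sorbs2 and Thbs1, and points are more scattered than before grafting.

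Hox genes, which are off in head mesoderm, were mostly too low to be compared in these pools. Of 39 Hox genes, 12 were tested in grafts, and 13 had been called higher in TA before grafting. Hoxa7 and Hoxa10 were kept. Hoxa9 had reads in 1 EOM and 4 TA grafts, a difference of -1.60 (SE 0.93), and was reduced from -4.55. Hoxa5 was at -1.14 to 4.76 log2 RPM (median 2.44) in EOM and 1.77 to 6.27 (median 4.26) in TA grafts, with reads in 5 and 7 of 7, and its difference of -2.03 (95% interval -4.24 to 0.17) against -2.79 before left it undetermined. Hoxa3, whose span holds Hoxa5, was undetermined too. Hoxc9 had reads in 1 EOM and 6 TA grafts at a median of 1 read in TA, a difference of -1.02 beside -5.78 before. All 5 tested genes of the HoxA cluster lay on the TA side, as did 55.8% of all genes, with a median difference of -1.95 beside -0.09 over all genes.

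Most other regional factors were at or near 0 reads in grafts of both origins or could not be placed. Lmx1a, a LIM homeobox factor, had 32 to 165 reads in every pre-graft EOM library, but in grafts it had reads in 2 of 7 EOM (at most 6) and 0 of 7 TA libraries and was too low to be tested. Lbx1, the factor of migrating limb progenitors, had 19 to 48 reads in every pre-graft TA library and reads in 1 TA graft (6) and 0 EOM grafts. Mobp, a myelin protein gene that had been higher in EOM, had reads in 1 graft of each origin. Pax3 had reads in 2 EOM and 3 TA grafts, up to 88 in one of the latter. Apart from that graft these levels were near the floor of detection, so a remaining difference was not detectable at this depth.

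Where such factors remained measurable, the intervals were wide. Barx2, a homeobox gene of muscle progenitors, had reads in 6 EOM and 3 TA grafts and was higher in EOM in 5 of 6 pairs. Its difference of 1.93 (95% interval -0.53 to 4.38) included 0 and excluded the 6.94 seen before. Eya2, a cofactor of sine oculis homeobox proteins, had a difference of 1.10 (95% interval -1.37 to 3.57) against 5.37. Tbx15, a T-box factor, was undetermined at 1.16 (95% interval -1.28 to 3.60) against 3.10. Pax7 itself, at -1.15 before grafting, stood at -0.01 (SE 0.75), and Myod1, the determination factor at -2.02 before grafting, stood at -1.04 (95% interval -2.51 to 0.43), so neither could be placed.

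Reduced genes are described by those with the narrowest graft intervals. Of these, on either side, Cd34 and Cxcl2 passed the test of the change itself, described after the opposite genes, and the others did not. Among EOM genes, Tagln2, an actin-binding transgelin, was at 7.50 to 9.25 log2 RPM (median 8.64) in EOM and 7.01 to 9.45 (median 8.72) in TA grafts, with full overlap. Its difference of -0.05 (95% interval -0.98 to 0.88) excluded the 1.06 before grafting. Timp3, an inhibitor of metalloproteinases, stood at 0.32 (95% interval -0.62 to 1.27) against 1.84. It lies within Syn3 on the opposite strand, whose values followed it (0.31 against 1.74) and may hold its reads. Cd34, a surface sialomucin of satellite and endothelial cells, was at 6.24 to 8.47 (median 7.18) in EOM and 5.67 to 8.54 (median 8.25) in TA grafts, and its difference of -0.69 (95% interval -1.70 to 0.32) lay below the 1.39 seen before. Gbp2, an interferon-induced GTPase, stood at -0.36 and Cd164, another sialomucin, at -0.08, beside 1.22 and 1.02.

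On the TA side, Nr4a1, an immediate early nuclear receptor, was at -0.27 (95% interval -1.26 to 0.72) in grafts against -1.35 before. Hmox1, the stress-induced heme oxygenase, was at -0.01 (95% interval -1.24 to 1.22) against -1.80, and Cxcl2, a neutrophil chemokine, at 0.92 (95% interval -0.28 to 2.12) against -2.73. Galntl2, D0H4S114 and Cdh5 were reduced as well, at -0.33, -0.56 and -0.77. Cdh5 is the cadherin of endothelial cells and a member of the endothelial list described below.

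In 5 genes the graft interval excluded 0 on the other side, 4 of 356 tested EOM genes and 1 of 143 tested TA genes. Of all genes, 2.32% were higher in TA and 1.33% higher in EOM grafts at the same unadjusted level. The opposite shares did not exceed that background. These genes are named here because they are few, and they were picked after their values were seen. Calcrl, the receptor subunit for CGRP and adrenomedullin, was at 4.36 to 6.85 log2 RPM (median 5.81) in TA grafts and -0.99 to 5.90 (median 3.90) in EOM grafts, TA being higher in 6 of 6 pairs. Its difference was -2.33 (SE 0.81) in grafts against 2.38 before. Klhl30 had 1 read in 1 of 7 EOM grafts and reads in 5 of 7 TA grafts, a difference of -2.89 against 3.15 before. Tmem100 stood at -2.52 against 3.95 and Pde9a, a cGMP phosphodiesterase, at -2.40 against 3.69. Lix1 had been lower in EOM (-1.33) and was at 2.50 (SE 1.03) in grafts. Without the filter on level, Tmem100 and Pde9a were reduced and the other 3 were again opposite. The 4 opposite EOM genes became 12 without the TA graft of mouse 3 of Experiment 2, 7 without that of mouse 1 or mouse 4 and 2 without that of mouse 2 or mouse 6. The 1 opposite TA gene became 0 without the TA graft of mouse 1 or mouse 6 of Experiment 2 or the EOM graft of mouse 4 of Experiment 1, and 2 without the TA graft of mouse 2 or the EOM graft of mouse 4 of Experiment 2.

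The change of the origin difference itself was tested in 1 limma fit over the 4 groups, as the graft difference minus the pre-graft difference. Of 14428 genes, 30 passed at an adjusted p under 0.05. All 30 had been called before grafting, but the contrast holds the pre-graft difference behind that call, so this overlap is no separate evidence. Of the genes called reduced in grafts, 143 EOM and 57 TA genes, 9 passed. The reduced class takes the pre-graft difference without its own error. Lmx1a (-5.43) and Lbx1 (5.23) had the smallest p, both with limma adjusted p = 0.000104. Among the named genes, Hoxc11 (4.11, limma adjusted p = 0.00138) and Mobp (-7.30, limma adjusted p = 0.00204) followed. All of these genes entered through their pre-graft levels and were too low in grafts to be tested there. The floor of detection held their graft difference near 0, so the contrast mostly returned the pre-graft difference. Calcrl (-4.70), Klhl30 (-6.04), Tmem100 (-6.47) and Pde9a (-6.08) passed too, whereas Lix1 did not (limma adjusted p = 0.105). Alx4, Dio2 and Tshr did not pass, nor did Barx2 (limma adjusted p = 0.139). This fit shares 1 estimate of spread between groups whose spreads differ as given above.

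A score placed each library between the origins, as its mean centred log2 RPM over the 437 EOM genes minus that over the 166 TA genes. Pre-graft libraries define the score, so their values, 3.07 ± 0.34 (SD, n = 8) for EOM and -1.88 ± 0.38 (SD, n = 8) for TA, are a description. EOM grafts scored -0.78 to 0.76 with a mean of -0.12 ± 0.58 (SD, n = 7), and TA grafts -1.58 to -0.69 with a mean of -1.24 ± 0.34 (SD, n = 7). The gap between graft means was 1.11, or 22.5% of the pre-graft gap of 4.96. The pre-graft gap comes from the libraries that chose these genes, a choice that enlarges it. The score also holds the 81 EOM and 23 TA genes too low in grafts to be tested, whose graft differences the floor limits. Both lower the share by construction, so it is a description and not a measured loss. In 6 of 6 pairs the EOM graft scored above the TA graft of the same host, by 0.12 to 2.06, while the groups overlapped across hosts. Both graft means lay nearer to the TA end than to the EOM end.

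**Figure D4:**
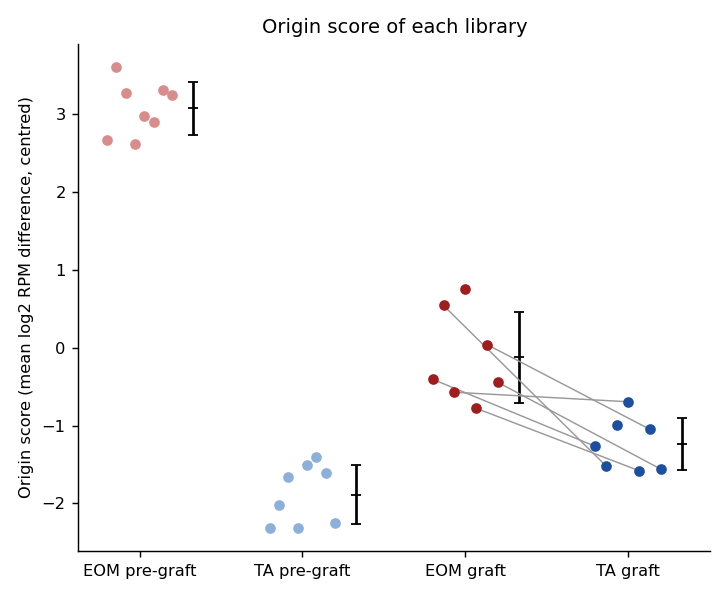
Origin score of each library (y axis, log2 RPM difference) by group (x axis), with points for libraries, bars for the mean and SD, and lines joining EOM and TA grafts of 1 host. The graft means of -0.12 and -1.24 sit between the pre-graft means of 3.07 and -1.88, and every line falls from EOM to TA.

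Some genes with small p in grafts had not been called before grafting. Only 2 genes (0.0162% of those tested) had no overlap between 7 and 7 grafts, both with TA above and 0 with EOM above. Phtf2 was at 2.75 to 4.98 log2 RPM in TA and -1.14 to 2.66 in EOM grafts, and Slc16a3, a lactate transporter of glycolytic cells, at 5.02 to 6.30 and -0.95 to 4.97. Meox1, a homeobox factor of somites, had reads in 7 of 7 TA grafts and in 1 EOM graft, that of mouse 1 of Experiment 2, at a median of 3.44 log2 RPM against -0.95. TA was higher in 6 of 6 pairs, and the difference was -3.92 (SE 1.01; limma, unadjusted p = 0.000408), whereas it was -0.11 before grafting. Asb4 differed by -4.01 (SE 1.08), beside -2.81 before grafting, and Rrm1, the large subunit of ribonucleotide reductase, by -2.72 (SE 0.76). Egfl8, Marveld1, 1110012J17Rik and Izumo4 were also among the 10 TA genes with the smallest p, at -3.76 to -3.33, and Marveld1 had stood at -1.99 before grafting. Meox1, Egfl8, Marveld1, 1110012J17Rik and Izumo4 passed the filter on level only through TA grafts, and such genes have to differ to some degree.

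On the EOM side, Ccdc32 was at 2.07 to 4.73 log2 RPM in EOM grafts and -1.14 to 4.05 in TA grafts and Ppil1, a spliceosomal cyclophilin, at 1.52 to 5.02 and -1.14 to 4.05. EOM was higher in 6 of 6 pairs for both, with differences of 3.54 (SE 1.05) and 3.56 (SE 1.06). Robo1, a receptor for Slit guidance cues, differed by 3.52 (SE 1.09), Tfam, the mitochondrial transcription factor, by 3.22 (SE 1.01) and Wisp2 by 4.22 (SE 1.27). Before grafting Robo1 and Tfam had stood at 0.92 and 0.89, under the limit of 1 for a call, and Wisp2 at 2.08. Ccdc32, Ppil1, Robo1, Tfam and Wisp2 passed the filter on level only through EOM grafts, and such genes have to differ to some degree.

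In the core programme of the stem cell no difference was detectable at this sensitivity. The counts of the lists that follow can be read beside the 1.33% of all genes higher in EOM and the 2.32% higher in TA at an unadjusted p under 0.05. None of 9 tested myogenic core genes and none of 16 satellite cell surface and niche genes reached an unadjusted p of 0.05, with medians of 0.04 and 0.49. Sdc4, a syndecan of the niche list, was at 9.47 to 12.93 log2 RPM in EOM and 6.71 to 12.52 in TA grafts, with a difference of 0.46 (95% interval -0.93 to 1.85). Of 13 Notch pathway genes 1, the endothelial ligand Dll4, was lower in EOM. Of 20 cell cycle genes 1, Ccne1, was higher in EOM, with 0 reads in 7 TA grafts, and of 5 differentiation genes 1, the acetylcholine receptor subunit Chrna1, at 3.19 (SE 1.24). None of 22 early response genes passed, and 2 of 35 interferon-induced genes, Ifit2 (-1.93) and Ifi203 (-1.94, which shares its locus with Mndal), were lower in EOM, with 0 higher. Of 22 growth factor genes 1, the receptor Tgfbr1, was lower in EOM in 6 of 6 pairs (-1.43). Of 7 tested limb progenitor genes 2 were lower in EOM, Tbx1 and Meox1, with a list median of -0.40. Of 6 tested head genes 1, Alx4, was higher, with a list median of 1.44. Without the filter, the medians over the 11 limb and 17 head genes with any read were -0.40 and 0.42. Ccne1, Chrna1 and Alx4 passed the filter on level only through EOM grafts, and Tbx1 and Meox1 only through TA grafts. Among 11 tested genes singled out by the study from these samples, which is no independent evidence, 3 were higher and 1 lower in EOM.

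Markers of other cells were present in the sorted pools. All 5 tested erythroid genes of 9 listed were higher in EOM at an unadjusted p under 0.05 (1.33% of all genes), with a median of 4.65. Hbb-b1, a beta globin, was at -1.09 to 12.75 log2 RPM (median 12.08) in EOM and -0.97 to 11.47 (median -0.44) in TA grafts, a difference of 5.37 (SE 1.92; limma, unadjusted p = 0.00804). Summed RPM of the list was 5132 to 9651 in 5 EOM grafts, and 1.88 and 0.855 in those of mouse 4 of Experiment 1 and mouse 5 of Experiment 2. In TA grafts it was 3827 in mouse 3 of Experiment 1, 2530 in mouse 2 of Experiment 2 and 2.46 to 14.2 in the other 5. Within Experiment 2 alone, Hbb-b1, Hba-a1 and Hba-a2 were called (differences of 8.36, 7.23 and 6.93, limma), the only calls in that subset. Hba-a1 and Hba-a2, and Hbb-b1 and Hbb-b2, are near-identical and can share reads. Alas2, the heme synthesis enzyme of erythroid cells, was named after its value of 3.00 was seen, and Slc4a1, a membrane protein of red cells, had 0 reads in 7 of 7 EOM grafts. Hba-a2, Hbb-b1, Hbb-b2 and Alas2 passed the filter on level only through EOM grafts. Without the filter, the median over the 7 listed genes with any read was 4.12. The part of these cells in other results was not tested.

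All 11 endothelial genes tested lay on the TA side, where 55.8% of all genes lay, and 2 of them, Vwf (-3.31, SE 1.00) and Tie1 (-1.49, SE 0.66), had an unadjusted p under 0.05 (2.32% of all genes), with a list median of -1.07. Their summed RPM was 236 to 6751 (median 3709) in EOM and 1472 to 7983 (median 5068) in TA grafts, so the ranges overlapped, and the EOM graft of mouse 4 of Experiment 1 held the lowest sum. Several genes named on the TA side above, Cdh5, Calcrl, Dll4 and Tie1, are also expressed in endothelium, and the part of that cell type in their differences was not tested. No fibro-adipogenic (10 tested), mural (9), myofibre (14), macrophage (5), oligodendrocyte (6) or tendon (5) marker reached an unadjusted p of 0.05. All 9 mural genes lay on the TA side too, with a list median of -0.69. Their summed RPM was 550 to 5324 (median 2242) in EOM and 714 to 6782 (median 3029) in TA grafts. Of 8 Schwann cell markers 1, Egfl8, which overlaps Agpat1, was lower in EOM, and of 11 lymphocyte markers 0 were high enough to be tested.

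**Figure D5:**
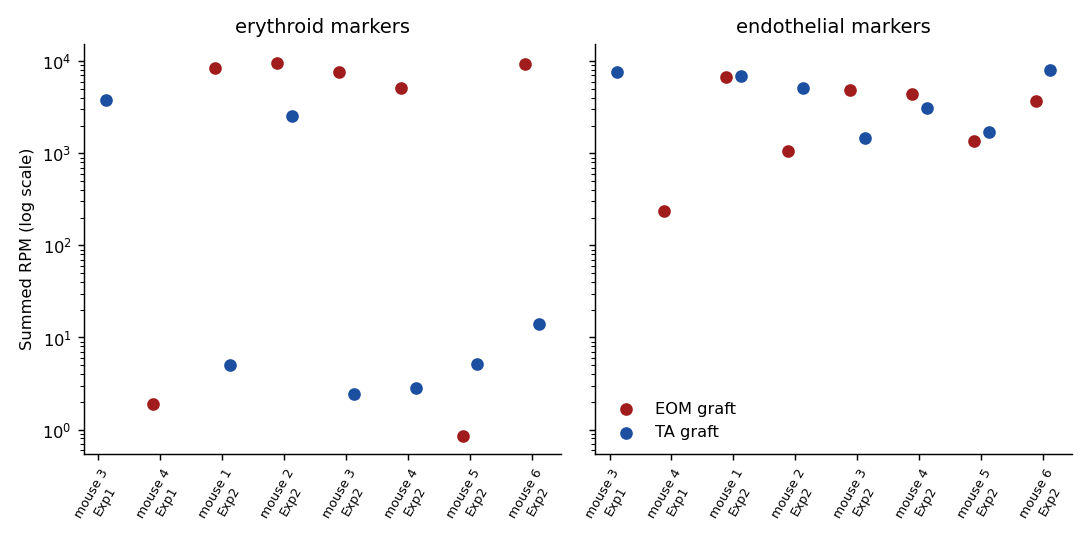
Summed RPM of erythroid and endothelial marker genes (y axis, log scale) in each graft, by host (x axis), red for EOM and blue for TA grafts. Erythroid sums reach 5132 or more in 5 of 7 EOM grafts and 2530 or more in 2 of 7 TA grafts. Endothelial sums run from 236 to 6751 in EOM and from 1472 to 7983 in TA grafts, and these ranges overlap.

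Origin was not a leading axis among grafts. The first principal component held 19.1% of the variance and its group means lay within the spread of the grafts (two-sided exact permutation test over 7 and 7 grafts, p = 0.752). The second held 13.5% (exact permutation p = 0.111), where the smallest p this design allows is 0.000583. Paired grafts of 1 host did not resemble each other, with correlations of their deviations from group means between -0.12 and 0.09 in the 6 pairs.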

How the data were processed

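RNA libraries of EOM and TA grafts and of pre-graft cells were compared on the authors' deposited gene table, in log2 RPM from Seqmonk, with GRCm38 as the build; per the submitters' processing notes, reads were trimmed with Trim Galore 0.4.4 and aligned with HISAT2 2.1.0. The authors also deposited read counts per library and percent values from quality control, used for depth. The log2 RPM values gave whole reads for 99.9856% of values within 0.02 read, and a gene without reads sits at the level of 0.9 read, so differences against such genes depend on that value. Of repeated symbols the row with most reads was used (66 rows dropped of 25965).

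A gene entered the test when 4 or more libraries exceeded a log2 RPM of 1. The test was limma 3.58.1 in R 4.3.3, with variances moderated along the mean, for EOM minus TA, two-sided, Benjamini-Hochberg over all genes, called at adjusted p under 0.05 and a log2 difference beyond 1. The study fitted counts, so edgeR 4.0.16 and DESeq2 1.42.0 on recovered reads were alternatives. The script was tested on simulated data. Samples were grouped by their labels. Named genes were regional, myogenic and Hox lists, the 10 smallest graft p and the 10 smallest p of kept and 6 narrowest intervals of reduced genes in each direction, genes without overlap, and up to 4 genes of each other list; Alas2, Vcan, A730049H05Rik, Slc6a17, Calcrl, Klhl30, Tmem100, Pde9a and Lix1 were added after their values were seen. Members and lists were chosen with earlier results of these data known. P-values measure the spread between these libraries, each from 1 numbered mouse. The 6 pairs of Experiment 2 share donor and host; the correlation of their deviations was -0.12 to 0.09. Reads carry no molecular identifiers, so folds against a floor of 3 reads cover counting error only. Results for a few genes are not reported here.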

Additional observations from a re-analysis of the deposited data

Results flagged for a closer look

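Several single grafts stood apart from the other 6 of their group by a gap that chance alone gives in about 1 in 20 groups, and many groups were examined. The EOM graft of mouse 2 of Experiment 2 lay at -194 on the second principal component. In the same graft Map3k6 (0.60 log2 RPM), Calcrl (-0.99) and Ifit2 (-1.14, no read) were low and Hoxc9 (2.82) was high. The EOM graft of mouse 4 of Experiment 2, from 9 cells, had no read of Tshr or Slc16a3 (both -0.95) and was the only EOM graft with Tbx1 (2.01). Meox1 and Hoxa9 had reads in 1 EOM graft, that of mouse 1 of Experiment 2 (both 2.39), and Egfl8 was highest in that of mouse 3 of Experiment 2 (3.14).

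Among TA grafts, that of mouse 3 of Experiment 2 had the lowest sum of nuclear RPM (7.72 on a log2 scale) and the lowest Map3k6 (4.30), Cd164 (5.69), Cd34 (5.67), Nr4a1 (6.21) and Asb4 (-0.29). Pkp2 (3.16) and Robo1 (3.87) were high in the TA graft of mouse 5 of Experiment 2, and Pdgfc (4.05) in that of mouse 2 of Experiment 2.

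The origin difference in grafts differed from that before grafting, by limma over the 4 groups with adjusted p, for Lmx1a and Lbx1 (both 0.000104), Hoxc11 (0.00138), Mobp (0.00204), Pde9a and Hoxc10 (both 0.0141), Hoxc9 (0.0207), Tmem100 (0.0394), Klhl30 (0.0402), Cxcl2 (0.0470), Calcrl and Cd34 (both 0.0480). For Lmx1a, Lbx1, Hoxc11, Mobp and Hoxc10 the graft levels were too low for the graft comparison, so this contrast mostly reflects their pre-graft difference.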

How the results depend on the processing

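The 0 graft calls became 1 with a replicate block for donor as a fixed effect (Hbb-b1), 3 in Experiment 2 alone (Hbb-b1, Hba-a1, Hba-a2), 3 in 1 fit over the 4 groups (Alx4, Robo1, Meox1) and 3 with DESeq2 (Alx4, Asb4, Slc6a17), and were 0 in each of the fits that left out 1 graft. Under the paired fit with donor block, Hbb-b1 differed by 8.36. Kept EOM genes numbered 15 in Experiment 2 alone, 45 with failed libraries included, 47 in 1 fit over the 4 groups, and 18 to 34 when 1 graft was left out. Kept TA genes numbered 12 with edgeR, 13 with DESeq2 and 11 to 30 when 1 graft was left out. The pre-graft score gap was 4.33 with failed libraries.

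Pre-graft calls higher in EOM were 282 (without mitochondrial genes), 275 (centred), 191 (edgeR), 259 (DESeq2), 173 (failed libraries included) and 136 (4 groups). Those higher in TA were 323 (DESeq2), 269 (block, donor fixed), 97 (Experiment 2 alone), 29 (failed libraries included), 68 (4 groups) and 263 (sample weights). Genes at unadjusted p under 0.05, higher in EOM and in TA, were 109 and 185 with a stricter filter, 253 and 473 with failed libraries, 507 and 685 over 4 groups, and 298 EOM (without mitochondrial genes), 339 EOM (centred) and 566 TA (weights). Reduced genes were 94 EOM (stricter filter), 254 EOM (4 groups), and 95 EOM and 94 TA with DESeq2, where 36 TA genes were undetermined.

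Differences near 0 changed sign. Galntl2 was 0.0096 in the donor block and Experiment 2 alone, 0.013 with edgeR and 0.035 with DESeq2. Hmox1 was 0.39 in the donor block and Experiment 2 alone, 0.027 with the block by estimated correlation, 0.19 with failed libraries, 0.052 without mitochondrial genes, 0.10 centred, 0.50 with edgeR and 0.53 with DESeq2. Myf5 was -0.73 in the donor block and Experiment 2 alone, -0.031 with the estimated correlation, -0.28 with edgeR, -0.23 with DESeq2 and -0.58 with weights. Cd164 was 0.15 with failed libraries and 0.033 centred, Cit -0.70 with failed libraries and -0.24 without grafts of under 20 cells. Enpep was -0.093 with failed libraries, -0.39 with edgeR, -0.37 with DESeq2 and -0.81 without grafts of under 20 cells. Pax7 was 0.12 with failed libraries, 0.046 without mitochondrial genes, 0.097 centred and 0.26 without grafts of under 20 cells, and Tagln2 0.015, 0.066, 0.065 and 0.087 without mitochondrial genes, centred, with edgeR and with DESeq2. Leaving out 1 graft gave -0.53 to 0.88 for Enpep, -0.44 to 0.26 for Hmox1, -0.66 to 0.53 for Myf5, -0.31 to 0.13 for Tagln2, -0.40 to 0.11 for Cd164 and -0.59 to 0.53 for Pax7. The cause was not tested. Depth and cell number limit low genes, and a missing call does not show equal levels.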
